A study of Mus musculus with 6 samples.

Results

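The genes of the MHC class II antigen presentation machinery were examined in mouse liver tumors: the chains H2-Aa, H2-Ab1 and H2-Eb1, the loading genes H2-DMa, H2-DMb1, H2-DMb2, H2-Oa and H2-Ob, the invariant chain Cd74, and the regulator Ciita. These 10 of the 47643 genes in the table were chosen by symbol, and the set was selected on the difference between GSK3326595 and vehicle in these same libraries. Their differences between the groups are therefore a description, and the calls that fits over all genes made for them are printed beside the share of all genes called, with nothing read from them. The 6 libraries were bulk total RNA of liver tumors from LAP-tTA-tetO-MYC mice of the FVB/N strain. In this system the LAP promoter drives the tetracycline transactivator in hepatocytes, which switches on a MYC transgene once doxycycline is withdrawn. The tested mice were given the PRMT5 inhibitor GSK3326595 for 2 weeks, at 50 mg/kg/day (3 libraries), PRMT5 being an enzyme that methylates arginines, and the controls received vehicle over that time (3 libraries). Both groups carried the same transgenes, drank doxycycline at 100 mg/L up to the age of 4 weeks, and had MYC on for 8 weeks before treatment began. Replicates are numbered, but nothing says that each was another animal, and the p-values below therefore reflect only how these samples vary, which may be technical.

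MHC class II molecules are pairs of an alpha and a beta chain that present peptides from endosomes to CD4 T cells. New chains assemble with the invariant chain CD74 in the endoplasmic reticulum, which blocks the groove and sends the complex to endosomes. There proteases trim CD74, the heterodimer DM exchanges the remaining fragment for peptides, and DO, which resembles DM, restrains it. CIITA is the co-activator without which these genes are hardly transcribed. It does not bind DNA itself but is recruited by a complex on the conserved X and Y boxes of class II promoters, formed by the RFX factors, CREB1 and NF-Y. Dendritic cells, B cells and macrophages, the Kupffer cells of the liver among them, carry class II, and interferon gamma can induce CIITA in other cells.

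The libraries held between 25814339 and 33621083 expected counts. GSK3326595 replicate 2 stood apart at 103.1 on the leading principal component (38.1% of variance), and the other 5 libraries lay between -50.2 and 9.41. Alb, the hepatocyte product albumin, reached 3155 to 11700 CPM in GSK3326595 and 4981 to 11930 CPM in vehicle libraries. Prmt5, the gene of the inhibited enzyme, had 51.3, 95.8 and 129.8 CPM in GSK3326595 against 69.8, 48.9 and 84.8 CPM in vehicle libraries. Xist, the RNA of the inactive X chromosome, had 0.43 to 3.25 CPM in GSK3326595 and 17.0 to 27.4 CPM in vehicle libraries, while the Y-linked Eif2s3y had 40.6 to 48.3 CPM in GSK3326595 and 53.7 to 60.6 CPM in vehicle libraries. The labels give no sex, and the part of this difference between the groups in the values below was not tested.

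The promoters of the class II genes were searched for the X and Y boxes. RefSeq promoter windows of mouse GRCm38.p6, from 250 bases before to 50 bases after a start, were found for 7 of the 10 genes (8 windows, H2-DMa having 2). H2-Ab1, Cd74 and Ciita had no window. The Y box letters TGATTGG, the form of the CCAAT box that NF-Y binds, were on the gene's strand in 6 of the 8 windows, against 4.01% of all 32851 windows (7.82% on either strand). The X box letters CTAGNNAC were in 3 of the 8 windows, against 10.4% of all windows on either strand. Both sets of letters, X before Y with starts 30 to 40 bases apart, were in 3 of the 8 windows. They were in 9 of all 32851 windows on either strand (0.0274%). Only these exact letters were searched, so H2-Aa, H2-DMb2 and H2-Oa may hold an X box of near spelling. The letters of the motifs and the spacing were set after seeing the windows of these genes. The motifs do not overlap each other where both occur, and a match describes letters only. The reference is of C57BL/6J, whereas the tumors were of FVB/N, whose own sequence was not used here. The 60 bases around the Y box follow 5′ to 3′ on the gene's strand, with Y and X box letters in capitals, because they show the spacing and how closely the boxes resemble each other:
H2-Aa (chr17:34287862-34287921, minus strand): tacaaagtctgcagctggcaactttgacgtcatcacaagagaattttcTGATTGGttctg
H2-Eb1 (chr17:34305758-34305817, plus strand): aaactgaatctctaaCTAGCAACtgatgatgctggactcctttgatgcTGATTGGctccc
H2-DMb1 (chr17:34153080-34153139, plus strand): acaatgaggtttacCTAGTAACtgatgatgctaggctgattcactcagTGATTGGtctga
H2-DMb2 (chr17:34145109-34145168, plus strand): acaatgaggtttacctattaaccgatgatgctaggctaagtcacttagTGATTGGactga
H2-Oa (chr17:34092286-34092345, plus strand): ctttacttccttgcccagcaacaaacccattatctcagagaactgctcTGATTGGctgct
H2-Ob (chr17:34238798-34238857, plus strand): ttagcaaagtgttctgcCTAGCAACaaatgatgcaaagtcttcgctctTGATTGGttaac

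The Y box began 45 bases (H2-Oa), 50 bases (H2-Aa), 59 bases (H2-Ob), 61 bases (H2-Eb1), 63 bases (H2-DMb1) and 92 bases (H2-DMb2) upstream of the RefSeq start. The X box letters began 34 bases before the Y box in H2-DMb1, 33 in H2-Eb1 and 31 in H2-Ob. The windows of H2-DMa held neither. The starts that RefSeq gives for H2-DMa, H2-DMb1 and H2-DMb2 lie within the longer GENCODE gene models cited below. The windows of H2-DMa do not reach the start of its GENCODE model, so they cannot show whether boxes lie there.

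All 10 genes had higher values in GSK3326595 than in vehicle tumors, and in each gene the 3 GSK3326595 libraries lay above the 3 vehicle libraries. Such a separation was found in 5.82% of all 27765 genes with a count, and since the genes were chosen on this contrast nothing is read from the 10 of 10. The median log2 difference over the 10 genes was 3.14, and over all 27765 genes it was 0.08. These differences come from an edgeR fit without a filter on low counts, so that every gene had a value. After the filter, which kept 17012 genes and 9 of the 10, edgeR's quasi-likelihood test with Benjamini-Hochberg adjustment called 0 of the 9, as it called 0% of all genes (smallest adjusted p = 0.456). At an unadjusted p under 0.05, 9 of the 9 were higher, against 5.45% of all genes called higher (927 higher and 648 lower). DESeq2 called 8 of the 9 higher, against 1.09% of all genes (186 higher and 100 lower). It did not call H2-Ob, and H2-Oa was not kept by the filter.

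**Figure D1:**
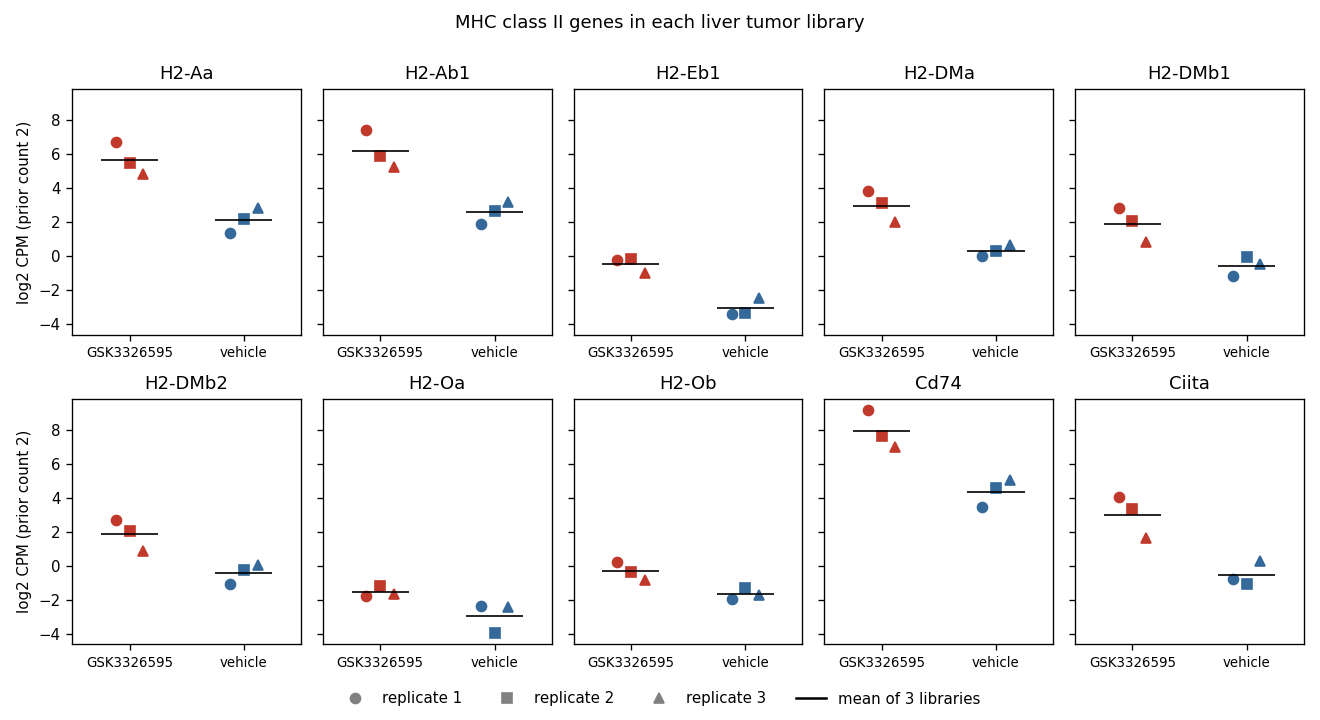
Level of each of the 10 MHC class II genes in each library, as log2 CPM with a prior count of 2, with GSK3326595 libraries in red on the left, vehicle libraries in blue on the right, symbols for replicates and lines for group means. The groups do not overlap in any panel, and GSK3326595 replicate 1 (circle) is the highest library in 8 of the 10 panels.

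The A chains, with the invariant chain, were the most abundant of the 10 genes in both groups. H2-Aa, the alpha chain of the A molecule (GRCm38, chromosome 17, 34282744 to 34287823, minus strand), had 103.9, 45.3 and 28.55 CPM in GSK3326595 libraries, against 2.515, 4.55 and 7.125 CPM in vehicle libraries. The lowest GSK3326595 library was thus above the highest vehicle library, and the means were 59.2 ± 39.6 CPM in GSK3326595 and 4.73 ± 2.31 CPM in vehicle (SD, n = 3 each). The log2 difference was 3.66 ± 0.55 (SE), or 12.7-fold. H2-Ab1, its beta chain (chromosome 17, 34257689 to 34269419, plus strand), had 169.2, 60.3 and 37.5 CPM in GSK3326595 libraries, against 3.73, 6.32 and 8.97 CPM in vehicle libraries. Its means were 89.0 ± 70.4 CPM in GSK3326595 and 6.34 ± 2.62 CPM in vehicle (SD, n = 3 each). This was 14.2-fold, or 3.83 ± 0.59 as a log2 difference (SE). The 2 chains that pair in the A molecule moved in step: H2-Aa counts were 0.614, 0.750 and 0.762 of H2-Ab1 counts in GSK3326595 libraries and 0.675, 0.720 and 0.794 in vehicle libraries, ranges that overlapped.

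H2-Eb1, the beta chain of the E molecule (chromosome 17, 34305867 to 34316674, plus strand), was close to undetected in both groups. Its counts were 25, 27 and 12 in GSK3326595 libraries, against 1, 1 and 4 in vehicle libraries, and its CPM averaged 0.691 ± 0.225 in GSK3326595 and 0.0617 ± 0.0499 in vehicle (SD, n = 3 each). The log2 difference of 3.40 ± 0.69 (SE) rests on those few vehicle counts, and a count of 0 alone would allow up to 3. H2-Eb1 counts were 0.476%, 1.39% and 1.16% of H2-Ab1 counts in GSK3326595 libraries and 0.855%, 0.538% and 1.33% in vehicle libraries. The E alpha chain is annotated in the C57BL/6J reference as the pseudogene H2-Ea-ps, which had 37, 18 and 6 counts in GSK3326595 libraries and 2, 0 and 6 in vehicle libraries. FVB/N carries the q haplotype of this locus, one of those that make no E alpha protein. Class II chains are highly polymorphic, and how many FVB/N reads were lost against this reference was not tested.

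The DM genes, whose product exchanges the invariant chain fragment for peptide, were at lower levels than the A chains. H2-DMa, the alpha chain of DM (chromosome 17, 34119541 to 34139101, plus strand), had 13.9, 8.545 and 3.93 CPM in GSK3326595 libraries, against 0.923, 1.19 and 1.52 CPM in vehicle libraries. Every GSK3326595 library was above every vehicle library, with means of 8.80 ± 4.996 CPM in GSK3326595 and 1.21 ± 0.299 CPM in vehicle (SD, n = 3 each). The log2 difference was 2.87 ± 0.49 (SE), or 7.32-fold. Mice have a pair of adjacent DM beta genes, H2-DMb1 (chromosome 17, 34153072 to 34160230, plus strand) and H2-DMb2 (chromosome 17, 34143307 to 34151555, plus strand). Their 783 coding bases were identical at 751 positions (95.9%), and 27.2% of the 50-base windows of the H2-DMb1 transcript, and 13.7% of its 100-base windows, also occurred in H2-DMb2. The stretch of 60 coding bases with most differences is shown, from position 208 to 267 of the coding sequence in the GRCm38 reference, with the 17 differing bases in capitals, because reads there can tell the copies apart while reads from identical stretches cannot:
H2-DMb1: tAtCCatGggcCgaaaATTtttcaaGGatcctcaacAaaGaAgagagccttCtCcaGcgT
H2-DMb2: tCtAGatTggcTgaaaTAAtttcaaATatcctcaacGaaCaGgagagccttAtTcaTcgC

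The counts showed this sharing. Those of each copy were fractional in 5 of the 6 libraries, while the sum of both was whole within 0.01 in every library, so the division between the copies is an estimate and the sum is the firmer value. The sum was 13.5, 8.27 and 3.46 CPM in GSK3326595 libraries, against 0.796, 1.70 and 1.61 CPM in vehicle libraries, with means of 8.41 ± 5.02 CPM in GSK3326595 and 1.37 ± 0.498 CPM in vehicle (SD, n = 3 each). All GSK3326595 sums lay above all vehicle sums. Taken singly, H2-DMb1 averaged 4.32 ± 2.70 CPM in GSK3326595 and 0.652 ± 0.268 CPM in vehicle (SD, n = 3 each), with a log2 difference of 2.74 ± 0.58 (SE). H2-DMb2 averaged 4.085 ± 2.32 CPM in GSK3326595 and 0.717 ± 0.276 CPM in vehicle (SD, n = 3 each), with a log2 difference of 2.52 ± 0.55 (SE). The estimated division was close to even, as H2-DMb1 made up 52.8%, 49.9% and 50.4% of the sum in GSK3326595 libraries and 48.0%, 54.3% and 40.4% in vehicle libraries.

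The DO genes had the smallest differences of the 10. H2-Ob, the beta chain of DO (chromosome 17, 34238903 to 34254414, plus strand), had 34, 23 and 14 counts in GSK3326595 libraries, against 6, 10 and 8 in vehicle libraries, with means of 0.771 ± 0.2995 CPM in GSK3326595 and 0.257 ± 0.0760 CPM in vehicle (SD, n = 3 each). Its log2 difference was 1.60 ± 0.53 (SE), or 3.03-fold. H2-Oa, the alpha chain of DO (chromosome 17, 34092340 to 34095234, plus strand), had 7, 12 and 7 counts in GSK3326595 libraries, against 4, 0 and 4 in vehicle libraries. At these counts the group ranges stayed apart but by only 3 counts, and the log2 difference of 1.74 ± 0.89 (SE) carries the widest error of the 10. DO is made mainly in B cells, thymic epithelium and some dendritic cells.

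Cd74, the invariant chain (chromosome 18, 60803848 to 60812652, plus strand), was the most abundant of the 10. It had 573.7, 200 and 125.2 CPM in GSK3326595 libraries, against 10.8, 24.0 and 32.4 CPM in vehicle libraries. The lowest GSK3326595 library was above the highest vehicle library, and the means were 299.7 ± 240.3 CPM in GSK3326595 and 22.4 ± 10.9 CPM in vehicle (SD, n = 3 each). The log2 difference was 3.76 ± 0.62 (SE), or 13.5-fold.

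Ciita, the co-activator of all of these genes (chromosome 16, 10480059 to 10528418, plus strand), had 16.5, 9.94 and 3.06 CPM in GSK3326595 libraries, against 0.5095, 0.408 and 1.13 CPM in vehicle libraries. The groups again did not overlap. Its means were 9.84 ± 6.73 CPM in GSK3326595 and 0.683 ± 0.393 CPM in vehicle (SD, n = 3 each). The log2 difference of 3.85 ± 0.67 (SE), or 14.4-fold, was within 1 SE of those of H2-Ab1, Cd74 and H2-Aa. In these bulk samples, more cells that carry class II and more class II RNA per cell cannot be told apart.

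Single libraries weighed on these sizes without changing a direction. GSK3326595 replicate 1 was the highest library in 8 of the 10 genes, and without it the log2 difference was 2.85 for Cd74, 2.94 for H2-Ab1, 2.95 for H2-Aa, 3.22 for Ciita and 2.15 for H2-DMb1. Without vehicle replicate 3 that of H2-Eb1 was 4.25. The summed level of the 10 genes was 892.8, 334.3 and 202.9 CPM in GSK3326595 libraries, against 19.6, 38.5 and 53.3 CPM in vehicle libraries. The order of libraries within a group was the same for H2-Aa, H2-Ab1 and Cd74. After subtracting group means, the log2 CPM of H2-Aa and H2-Ab1 correlated over the 6 libraries with a Pearson r of 0.988, and that of H2-Ab1 and Cd74 with 0.991. H2-Oa and H2-Ob gave -0.56, on few counts. These coefficients describe 6 libraries that share a scaling for depth.

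Per length of transcript, as RPKM over the exons of the longest coding GENCODE transcript, the 10 genes fell into tiers. In GSK3326595 libraries Cd74 averaged 212.5 RPKM, H2-Ab1 73.4 and H2-Aa 52.5, and in vehicle libraries 15.9, 5.23 and 4.19 RPKM. H2-DMa, H2-DMb1 and H2-DMb2 followed at 5.305, 3.08 and 2.87 RPKM in GSK3326595 and 0.7305, 0.464 and 0.503 RPKM in vehicle. The gap below H2-Aa was clear in both groups, since the lowest H2-Aa library was above the highest H2-DMa library. Ciita averaged 2.32 RPKM in GSK3326595 and 0.161 RPKM in vehicle. H2-Eb1, H2-Ob and H2-Oa were lowest, at 0.590, 0.467 and 0.260 RPKM in GSK3326595 and 0.0527, 0.155 and 0.0756 RPKM in vehicle. Among neighbours in the GSK3326595 order, the ranges overlapped except between H2-Aa and H2-DMa and between Ciita and H2-Eb1. The order of neighbours was not the same in both groups. H2-Eb1 was above H2-Ob in 3 of 3 GSK3326595 libraries and in 0 of 3 vehicle libraries. H2-DMb1, on its estimated share of the DM beta counts, was above H2-DMb2 in 3 of 3 GSK3326595 libraries and in 1 of 3 vehicle libraries. By the means above, H2-Eb1 was also above H2-Oa in GSK3326595 and below it in vehicle, where both rest on 0 to 4 counts.

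Set against Cd74 in the same library, the genes did not all keep their proportions. The A chains did, as H2-Aa and H2-Ab1 counts together were 0.476, 0.528 and 0.527 of Cd74 counts in GSK3326595 libraries and 0.578, 0.453 and 0.496 in vehicle libraries. Ciita counts were 2.88%, 4.97% and 2.45% of Cd74 counts in GSK3326595 libraries and 4.72%, 1.70% and 3.49% in vehicle libraries, which also overlapped. H2-DMa counts, in contrast, were 2.425%, 4.27% and 3.14% of Cd74 counts in GSK3326595 libraries, below the 8.555%, 4.96% and 4.69% of vehicle libraries. The DM beta sum behaved alike, at 2.35%, 4.13% and 2.76% of Cd74 counts in GSK3326595 libraries and 7.375%, 7.08% and 4.96% in vehicle libraries. H2-Ob counts were 7.87%, 8.33% and 12.8% of H2-DMa counts in GSK3326595 libraries and 20.7%, 28.6% and 15.7% in vehicle libraries. H2-DMa and the DM beta sum were lower relative to Cd74, and H2-Ob lower relative to H2-DMa, in GSK3326595 libraries, with ranges that did not overlap. The ratio of H2-Ob to H2-DMa rests on only 6, 10 and 8 H2-Ob counts in vehicle libraries. These ratios come from the contrast on which the genes were selected and were not tested.

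**Figure D2:**
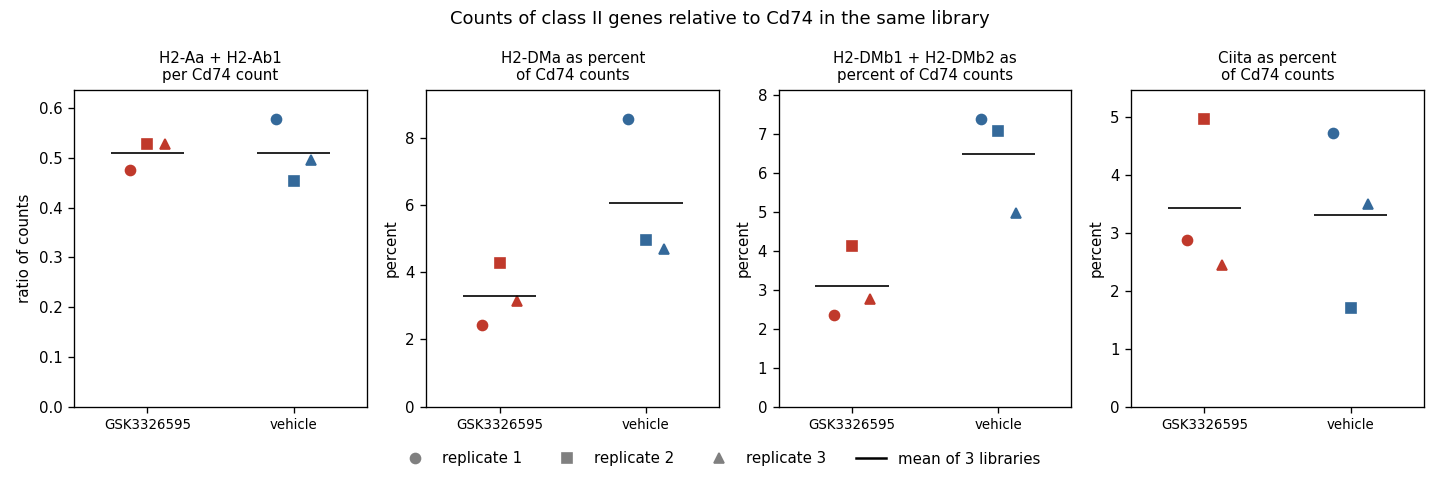
Counts of class II genes relative to Cd74 counts of the same library, as a ratio in the first panel and in percent in the others, for GSK3326595 libraries (red, left) and vehicle libraries (blue, right), with symbols for replicates and lines for group means. The A chains and Ciita overlap between the groups, whereas H2-DMa and the DM beta sum lie lower in GSK3326595, at 2.35% to 4.27%, than in vehicle, at 4.69% to 8.56%.

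The genes around this machinery, listed with earlier results of these data known, were mostly higher in value in GSK3326595, by differing sizes. The promoter-binding factors were split between the directions. By edgeR's adjusted test 0 genes of these lists were called, and at an unadjusted p under 0.05 the calls outside class I included Rfx5, Ctss, March1, Cd4, Lag3, Cd28 and Cd80. Values for single genes are log2 differences over the 17012 genes kept, and medians of lists come from the fit without the filter. Of the 7 factors of the complex on class II promoters, 4 were higher and 3 lower, with a median log2 difference of 0.05 against 0.08 for all genes with a count. Rfx5, a DNA-binding subunit of the RFX complex, had 20.6, 33.2 and 23.2 CPM in GSK3326595 libraries, against 15.2, 13.8 and 18.7 CPM in vehicle libraries (0.69 ± 0.25, SE). Its partners went the other way in value, with Rfxank at -0.45 ± 0.22 and Rfxap at -0.31 ± 0.23, and Nfyb, a subunit of NF-Y, was at 0.28 ± 0.34.

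The pathway from interferon gamma to Ciita had a median log2 difference of 0.37 over 7 genes. Ifng, the gene of the cytokine, had 2, 5 and 0 counts in GSK3326595 libraries and 1, 0 and 0 in vehicle libraries, which is at the limit of detection. The receptor chain Ifngr2 (0.34 ± 0.29) and the kinases Jak1 (0.35 ± 0.23) and Jak2 (0.07 ± 0.32) had small differences. Of the 7 genes 0 were free of overlap, against 5.82% of all genes with a count higher and free of overlap.

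Among the 6 endosomal proteases and reductases that prepare peptides and CD74, 5 were higher and the median was 0.55. Ctss, cathepsin S, which makes the last cuts in CD74, had 273.3, 92.4 and 74.6 CPM in GSK3326595 libraries and 40.5, 79.1 and 41.9 CPM in vehicle libraries (1.45 ± 0.55, SE). Ctsd and Ctsb, cathepsins D and B, were at 0.80 ± 0.35 and 0.66 ± 0.40. Much of these differences lay in GSK3326595 replicate 1, without which the log2 difference was 0.63 for Ctss, 0.35 for Ctsd and 0.095 for Ctsb. Ifi30, the lysosomal thiol reductase, was at 0.36 ± 0.29. March1, a ubiquitin ligase that marks surface class II for degradation, had 38.1, 14.6 and 12.3 CPM in GSK3326595 libraries, against 6.37, 10.9 and 10.55 CPM in vehicle libraries. Its log2 difference was 1.23 ± 0.49 (SE), and 0.54 without GSK3326595 replicate 1. The related March8 was at 0.43 ± 0.25, and Cd83, which protects class II from March1, at 0.04 ± 0.51. Beside the chains in the same locus, Btnl2, a butyrophilin-like gene, was at 0.91 ± 0.47 and H2-Eb2 had 1, 2 and 2 counts in GSK3326595 libraries and 0, 0 and 1 in vehicle libraries.

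The 8 genes on the recognition side had a median log2 difference of 1.455, with 7 higher and 6 free of overlap, and DESeq2 called 3. Over all genes, 5.82% of those with a count were higher and free of overlap, and DESeq2 called 1.09% of those kept higher. Cd4, the co-receptor that binds class II, had 11.7, 18.6 and 7.82 CPM in GSK3326595 libraries, against 4.71, 5.34 and 2.80 CPM in vehicle libraries. Lag3, an inhibitory receptor that also binds class II, had 1.58, 1.765 and 1.01 CPM in GSK3326595 libraries, against 0.3503, 0.408 and 0.388 CPM in vehicle libraries. Cd28, the costimulatory receptor, was at 2.67 ± 0.54, and its ligand Cd80 at 1.30 ± 0.41. The first 3 of these are the genes DESeq2 called, and their libraries did not overlap between the groups.

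Class I presentation, which NLRC5 controls much as CIITA controls class II, was higher in value too, but with another order of libraries. All 11 class I genes had positive log2 differences, with a median of 1.53. Of them 6 were free of overlap (5.82% of all genes with a count) and 5 called higher by DESeq2 (1.09% of all genes kept). Their summed level was 1317, 1494 and 667.1 CPM in GSK3326595 libraries, against 477.3, 586.8 and 562.1 CPM in vehicle libraries. GSK3326595 replicate 2 was the highest library in 9 of the 11 class I genes and in 2 of the 10 class II genes. Nlrc5 had 15.85, 24.55 and 4.00 CPM in GSK3326595 libraries, against 1.11, 2.92 and 2.86 CPM in vehicle libraries. Psmb9, an immunoproteasome subunit, was at 2.87 ± 0.68, Tap1, a peptide transporter subunit, at 2.12 ± 0.57, and B2m, the class I light chain, at 1.11 ± 0.29.

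**Figure D3:**
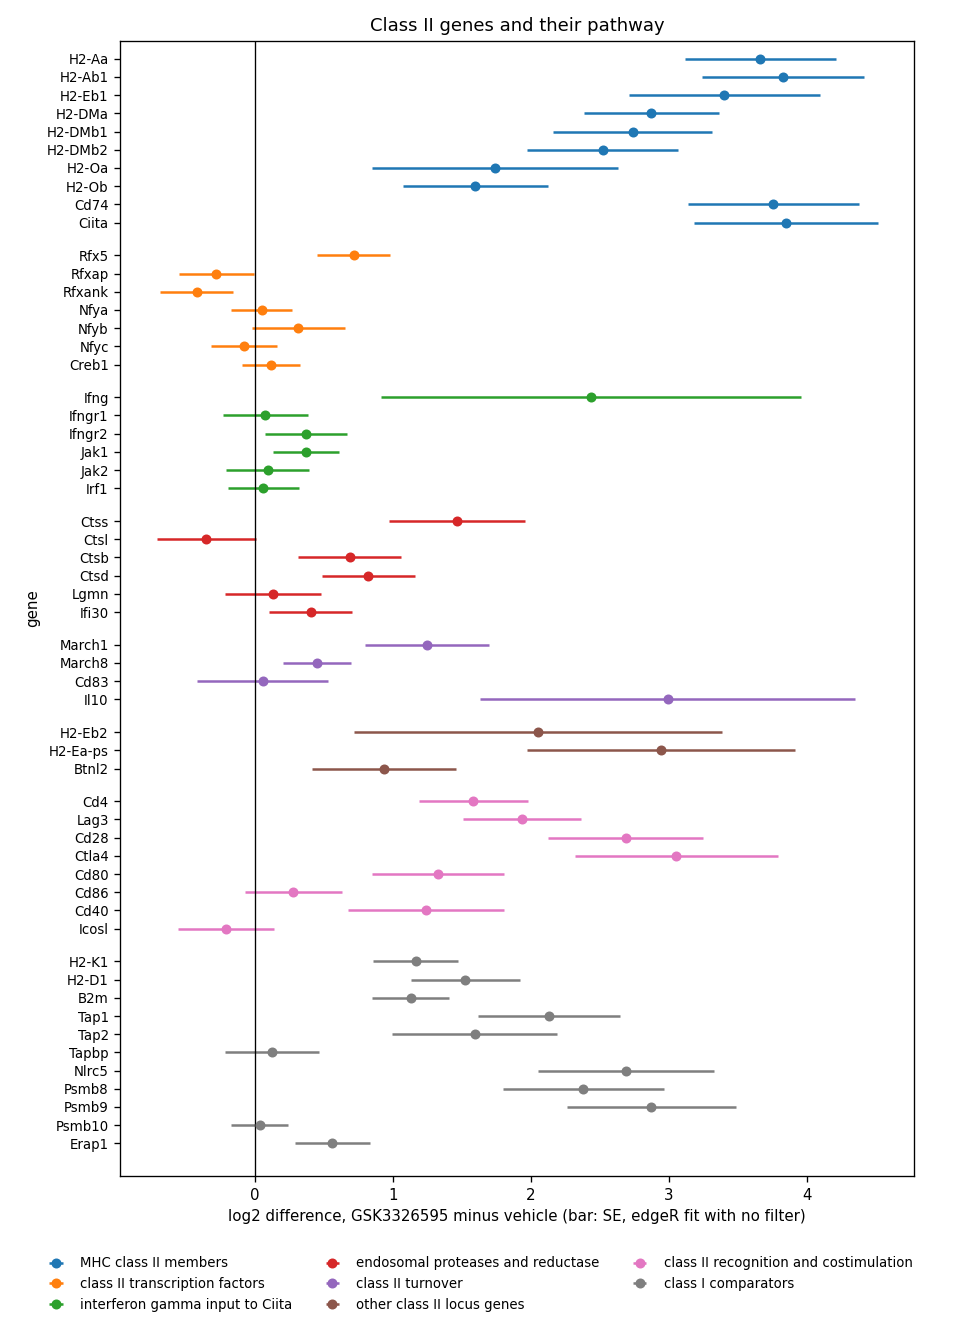
Log2 difference of GSK3326595 minus vehicle for the 10 class II genes and the reported genes of their pathway, from the edgeR fit with no filter on low counts, with bars of 1 SE and colours for the lists. The class II genes lie between 1.60 and 3.85, while the 7 promoter-binding factors lie between -0.42 and 0.72.

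Markers of cells that carry class II differed between the groups as well, and their part in the class II values was not tested. The 10 markers of conventional dendritic cells were all higher in value, 5 of them free of overlap, against 5.82% of all genes with a count. The summed level of these markers was 58.6, 41.3 and 46.9 CPM in GSK3326595 libraries, against 11.2, 16.4 and 31.4 CPM in vehicle libraries. Fscn1, which overlapped between the groups, made up much of several of these sums. It had 31.1, 7.65 and 31.1 CPM in GSK3326595 libraries and 3.34, 5.78 and 19.4 CPM in vehicle libraries. Flt3, the growth factor receptor of these cells, had 1.32, 2.20 and 0.505 CPM in GSK3326595 libraries and 0.191, 0.272 and 0.268 CPM in vehicle libraries, and Xcr1 was at 0 in vehicle replicate 2. Of 4 plasmacytoid dendritic markers, 4 were higher in value and 2 free of overlap, with sums of 46.8 to 72.6 CPM in GSK3326595 and 37.45 to 55.6 CPM in vehicle. Bst2 made up most of these sums, at 38.55 to 64.5 CPM in GSK3326595 and 35.7 to 53.9 CPM in vehicle. The 2 free of overlap were Siglech and Spib. Siglech had 1.98 to 4.15 CPM in GSK3326595 and 0.272 to 0.507 CPM in vehicle. Spib had 0.865 to 1.74 CPM in GSK3326595 and 0.127 to 0.537 CPM in vehicle.

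For B cells and macrophages the sums overlapped between the groups. The numbers of markers free of overlap below stand beside a share of 5.82% of all genes with a count, and nothing is read from them. The 12 B and plasma cell markers, of which 10 were higher in value and 4 free of overlap, summed to 40.9, 23.4 and 10.5 CPM in GSK3326595 libraries and 6.62, 9.62 and 10.5 CPM in vehicle libraries. The B cell markers Ms4a1, Pax5 and Blk were at 0 counts in GSK3326595 replicate 3, and Blk also in vehicle replicate 1. The 14 macrophage and Kupffer cell markers, of which 11 were higher in value and 1 (Ccr2) free of overlap, summed to 1738, 618.3 and 640.2 CPM in GSK3326595 libraries and 546, 792.1 and 762.7 CPM in vehicle libraries. The highest of these sums was that of GSK3326595 replicate 1, which was also the highest in class II. Among GSK3326595 libraries it was the highest in 10 of the 14 markers, and Cd5l alone reached 610.1 CPM there. The Kupffer cell markers Clec4f, Vsig4 and Marco went the other way. They were lower in GSK3326595 replicate 1 than in any other library, at 0.129, 0.129 and 0.644 CPM. Markers of T cells, which in mice carry no class II of their own, were higher in 10 of 10 and free of overlap in 10, with sums of 27.3, 34.1 and 15.5 CPM in GSK3326595 libraries, against 6.24, 7.65 and 5.605 CPM in vehicle libraries. Cd4, also counted on the recognition side above, gave 4.71, 5.34 and 2.80 CPM of the vehicle sums. The filter kept 6 of the 10, and the others, Cd3d, Cd3e, Cd8b1 and Cd5, had 0 to 6 counts in vehicle libraries.

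Other cell types gave a mixed picture. NK cell markers were higher in value in 7 of 7, with sums of 4.795 to 13.0 CPM in GSK3326595 and 1.85 to 4.01 CPM in vehicle. Stellate cell markers were higher in 7 of 7, with sums of 455.2 to 600.1 CPM in GSK3326595 and 99.4 to 436.8 CPM in vehicle. Of these 7 only 1, Col3a1, was free of overlap, against 5.82% of all genes with a count. Col3a1 was the largest part of each sum, at 254.2 to 407.7 CPM in GSK3326595 and 44.0 to 245.4 CPM in vehicle. Endothelial markers (4 of 6 higher) summed to 99.2 to 194.2 CPM in GSK3326595 and 79.1 to 139 CPM in vehicle, and cholangiocyte markers (3 of 5 higher) to 13.1 to 63.3 CPM in GSK3326595 and 11.1 to 26.0 CPM in vehicle. Neutrophil markers (1 of 6 higher) summed to 2.56 to 8.02 CPM in GSK3326595 and 1.88 to 161.7 CPM in vehicle, where vehicle replicate 2 stood apart, and Ly6g was at 0 in 3 libraries. Hepatocyte markers (2 of 7 higher) summed to 8975 to 28140 CPM in GSK3326595 and 16790 to 37600 CPM in vehicle, and liver tumor markers (0 of 4 higher) to 17490 to 41330 CPM in GSK3326595 and 28870 to 50010 CPM in vehicle. Both of these lists were at high levels in every library.

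**Figure D4:**
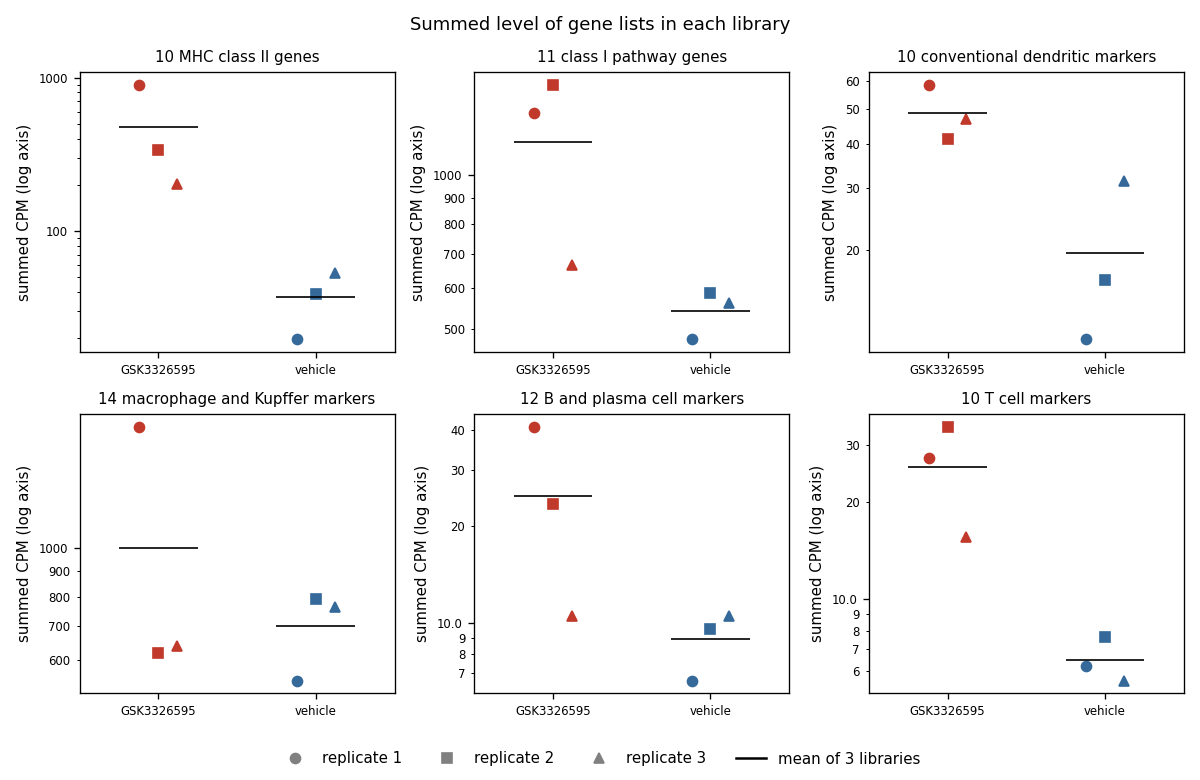
Summed TMM-scaled CPM, on a log axis, of the 10 class II genes, the 11 class I genes and 4 lists of cell markers in each library, with GSK3326595 in red on the left, vehicle in blue on the right, symbols for replicates and lines for group means. Class II, class I, dendritic and T cell sums do not overlap between the groups, while macrophage and B cell sums do.

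The genes whose pattern over the 6 libraries was most like the mean standardised log2 CPM of the class II genes were sought among 14448 genes with a mean of at least 1 CPM. The first was Pla2g2d, a secreted phospholipase of lymphoid tissue, with a Pearson r of 0.996 over the 6 libraries, and 0.966 after subtracting the group means. It had 6.83, 3.375 and 1.30 CPM in GSK3326595 libraries, against 0.127, 0.102 and 0.268 CPM in vehicle libraries, the same order of libraries as Ciita. Next came Dapp1, an adaptor of B cell receptor signaling (0.990), and Stx6, a syntaxin of endosomes and the Golgi (0.987). The other genes of the first 10 were Pik3r3, Magee1, Ikzf2, Gimap4, Siglech, Map3k14 and 1190002N15Rik, with r between 0.983 and 0.985. Siglech is also among the plasmacytoid dendritic markers above. The coefficients hold the group difference on which the class II genes were selected, the points share library and depth, and they are a description of 6 libraries. The size of the difference varied widely among them, with a log2 difference of 4.49 ± 0.76 for Pla2g2d and 0.41 ± 0.16 for 1190002N15Rik (SE).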

How the data were processed

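Total RNA from 6 mouse liver tumor samples was sequenced from TruSeq stranded libraries, per the labels' protocols. Expected counts per gene were deposited, which are estimates that need not be whole (12.3% of values were not). The authors used cutadapt, STAR, Picard and RSEM with mm10, per the submitters' processing notes; versions, annotation release and strand setting are not given in the sources used here. GENCODE M21 (GRCm38) matched 47224 of the 47643 gene IDs and gave their positions and lengths, and 419 had no match.

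Groups were taken from the labels. After rounding and filterByExpr (minimum count 10), 17012 genes were left, and edgeR 4.0.16 (R 4.3.3) was run on them with TMM scaling. Its quasi-likelihood test was two-sided, with a Benjamini-Hochberg threshold of 0.05 over all genes. Differences of the class II genes and medians of the lists come from the same model without the filter. A positive difference means higher in GSK3326595. To get an SE, the size of the log2 difference was divided by the root of the F statistic. CPM use TMM scaling, with a prior count of 2 for log2 CPM. DESeq2 1.42.0 (on the genes kept) and limma-voom (limma 3.58.1) were alternatives, beside other scalings and filters, a block for replicate number, and the omission of single libraries. The edgeR, limma and DESeq2 steps were first run on simulated counts with known changes, as a check of the code. RNA-seq reads here carry no molecular identifiers, and limits from counts cover counting error only.

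The class II genes and all lists were chosen with earlier results of these data known. The 10 class II genes were always named, up to 4 genes of smallest unadjusted p from each pathway list, and Rfx5 and Ifng always. One listed gene is counted in its list but not reported here. H2-Ea-ps, H2-Eb2, Flt3 and the markers at 0 counts were named after their values were seen. The same holds for Siglech, Spib, Bst2, Ccr2, Cd5l, Clec4f, Vsig4, Marco, Timd4, Fscn1, Col3a1, Cd3d, Cd3e, Cd8b1 and Cd5. Genes of like pattern were the 10 with the highest Pearson r. Promoter windows are RefSeq's (GRCm38.p6), read with Python 3.11.15 and Biopython 1.88.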

Additional observations from a re-analysis of the deposited data

How the results depend on the processing

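Each of the class II genes was higher in GSK3326595 in each alternative that gave it a value. Of 146 such values 145 moved by less than 1 SD between replicates, and the exception was H2-Eb1, at 4.25 without vehicle replicate 3. Leaving out 1 of 3 replicates can seldom move a group mean by that much, so nothing is read from this count. Cd74, for example, stayed within it while going from 3.76 to 2.85 without GSK3326595 replicate 1. The median log2 difference of the class II genes was between 2.60 and 3.57 when a library was left out, and between 3.04 and 3.69 under the other alternatives. A minimum of 1 CPM in 3 libraries left 7 of them. With library totals alone as scaling, the median of all genes with a count was 0.13. Calls depended on the tool: edgeR and limma-voom called 0 genes under each alternative, while DESeq2 called 186 genes higher and 100 lower, among them 8 class II genes and 8 pathway genes. Whether replicate numbers pair the samples cannot be told from 3 samples per group. In deviations from the group means, GSK3326595 replicates 1, 2 and 3 correlated with the same-numbered vehicle library at -0.07, 0.07 and 0.32. Their highest correlation with a vehicle library of another number was 0.32, 0.0069 and 0.068. With a replicate block the class II median was 3.07, and edgeR's unadjusted calls were 638 higher and 779 lower.

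Small pathway differences changed sign: Cd83 was at -0.079 with limma-voom, -0.11 with the replicate block and between -0.61 and 0.39 with a library left out. Jak2 was at -0.0050 with the block and between -0.25 and 0.36 with a library left out, and Nfyb between -0.0098 and 0.61. The cause was not tested. Depth limits H2-Eb1, H2-Oa, H2-Ob and Ifng, which have few or no counts in vehicle libraries, where a count of 0 allows up to 3 counts (0.0895 to 0.102 CPM).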
